A study of Mus musculus with 4 samples.

Results

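The genes described here are 9 Toll-like receptors and the co-receptor Cd14, followed in bone marrow-derived macrophages of mice that lack Hem1, the WAVE complex subunit encoded by Nckap1l, and of wild-type mice. The set is Tlr1, Tlr2, Tlr4, Tlr6 and Cd14 of the cell surface, and Tlr3, Tlr7, Tlr8, Tlr9 and Tlr13 of endosomes. They are 10 of the 19505 genes measured. Each had a single probe set that names it alone, so no choice between probe sets was needed. They were grouped by family and by where the receptors sit in the cell, not by a threshold on measured values.

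The study compared 2 Hem1 KO arrays with 2 WT arrays, 1 per mouse. Femoral marrow was grown for 8 days in RPMI with 20% L929-conditioned medium and 10% fetal calf serum, with no further treatment in either genotype. The label gives the genotype as Hem1 KO without the deleted part of the gene, the strain or the age of the mice. The values are deposited log2 RMA values of polyA RNA, so that a difference of 1 is a 2-fold change. They compare arrays for one gene and do not compare the level of one gene with that of another.

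Toll-like receptors are membrane proteins with a leucine-rich ectodomain that binds microbial molecules and a cytoplasmic TIR domain that recruits adaptors. Those at the surface recognise lipoproteins and lipopolysaccharide, and those in endosomes recognise nucleic acids. Binding leads through the adaptors MyD88 and TRIF to NF-kB and IRF transcription factors, and so to cytokines and type I interferon. Macrophages carry many of these receptors and use them as their main sensors of bacteria and viruses.

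None of the 10 genes passed the test between genotypes, although all 10 read lower on average in Hem1 KO macrophages (5 of 10 without WT replicate 1, 8 without Hem1 KO replicate 2, and 9 without Hem1 KO replicate 1 or after quantile normalization). Tlr8, an endosomal receptor that in humans senses RNA breakdown products, and Tlr1, a surface partner of Tlr2, had the lowest values in Hem1 KO cells relative to WT, at log2 differences of -0.95 and -0.78. Tlr2 itself differed by -0.03. With a difference called at an adjusted p under 0.05 by limma over all genes (Benjamini-Hochberg), 0 of 10 were higher, against 1.48% of all genes, and 0 were lower, against 0.133% (1.61% in either direction). At an unadjusted p under 0.05, 0 were higher, against 3.63% of all genes, and 2 were lower, against 1.57%, namely Tlr8 and Tlr1. In such bulk samples, fewer macrophages and less receptor RNA per macrophage cannot be told apart.

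Upstream sequence from RefSeq (GRCm38.p6) was matched by symbol, and windows on the chromosome of Cd14 were left out. Sequence was kept for 7 of the 10 genes. The 250 bases before the transcript start are shown for 4 of them: Tlr8 and Tlr1, which stood lowest against WT, Tlr6, the chromosomal neighbour of Tlr1, and Tlr2, whose 2 arrays lay farther apart in Hem1 KO macrophages than those of any other member. Capitals mark matches to 3 motifs, searched on both strands: GAGGAA, the core bound by the myeloid factor PU.1, GGGANTTNC for NF-kB, and GAAANNGAA for interferon response elements. For Tlr1 and Tlr6 the first of their listed starts is printed.
Tlr8, chrX:167264330-167264579 (- strand): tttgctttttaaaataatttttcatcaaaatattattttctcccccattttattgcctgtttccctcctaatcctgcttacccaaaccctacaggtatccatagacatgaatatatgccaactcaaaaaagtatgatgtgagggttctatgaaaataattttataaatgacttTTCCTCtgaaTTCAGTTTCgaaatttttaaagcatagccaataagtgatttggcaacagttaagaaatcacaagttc
Tlr1, chr5:64933559-64933808 (- strand): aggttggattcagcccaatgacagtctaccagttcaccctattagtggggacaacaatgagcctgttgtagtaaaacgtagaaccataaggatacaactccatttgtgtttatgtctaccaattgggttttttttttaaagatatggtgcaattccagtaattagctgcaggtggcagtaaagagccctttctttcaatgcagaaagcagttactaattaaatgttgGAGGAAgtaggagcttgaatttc
Tlr6, chr5:64959167-64959416 (- strand): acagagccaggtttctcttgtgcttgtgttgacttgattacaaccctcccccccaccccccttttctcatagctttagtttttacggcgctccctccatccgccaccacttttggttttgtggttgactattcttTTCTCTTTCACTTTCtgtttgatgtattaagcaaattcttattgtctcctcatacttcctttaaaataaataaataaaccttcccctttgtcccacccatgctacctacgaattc
Tlr2, chr3:83841609-83841858 (- strand): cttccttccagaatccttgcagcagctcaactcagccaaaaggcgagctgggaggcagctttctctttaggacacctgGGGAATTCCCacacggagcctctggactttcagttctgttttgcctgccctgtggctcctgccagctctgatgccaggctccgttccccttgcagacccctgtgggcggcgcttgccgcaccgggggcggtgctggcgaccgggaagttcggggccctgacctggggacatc
The 7 genes have 9 such windows. Tlr8 and the first start of Tlr1 each hold 1 match to the PU.1 core, as do Tlr9 and Tlr13, and 23.2% of all 32851 upstream windows of that length hold such a match. The other listed start of Tlr1 and that of Tlr6 hold no match to any of the 3 motifs. Tlr2 holds the NF-kB letters 172 bases before its start, in 2 overlapping matches on opposite strands, and Tlr3 holds 1 match, against 3.54% of windows. The first start of Tlr6 holds 2 overlapping matches to the interferon letters and Tlr8 holds 1, against 7.13% of windows. The letters describe these windows and were chosen after the expression values were seen.

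Before the values of single genes, the arrays and their cells are set out. The median over all genes was 6.95 and 6.49 on the Hem1 KO arrays and 6.82 and 6.42 on the WT arrays (replicates 1 and 2), so replicate 1 was brighter in both genotypes. Background was taken per array as the 95th percentile of 1448 chemosensory receptor genes, at 6.04 and 5.38 on the Hem1 KO arrays and 5.88 and 5.51 on the WT arrays. All 10 members lay above it on all 4 arrays. Nckap1l, the targeted gene, read 10.04 and 9.62 on the Hem1 KO arrays and 11.37 and 11.11 on the WT arrays (log2 difference -1.41, SE 0.32, limma adjusted p = 0.0467). That call needed both WT arrays, with differences of -1.28 without replicate 1 and -1.54 without replicate 2, and was also lost without Hem1 KO replicate 2 (-1.20). At the unchanged difference of -1.41 it was lost when dim genes were filtered out (adjusted p = 0.0868) and when all probe sets were tested (adjusted p = 0.121), so that 5 of 11 alternatives lost it. All 10 measured macrophage identity genes, of 12 listed, were above background on all arrays. Markers of other cells with Toll-like receptors were mixed.

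Above background on all 4 arrays were 3 of 6 measured B cell markers (Cd79a, Cd79b and Ebf1), 3 of 7 plasmacytoid dendritic cell markers (Bst2, Tcf4 and Cox6a2), 2 of 7 conventional dendritic cell markers (Zbtb46 and Cd209a), 2 of 9 neutrophil markers (Elane and Csf3r) and 2 of 8 basophil and mast cell markers (Prss34 and Kit). Below background on all 4 were 2, 4, 5, 4 and 5 markers of these lists, among them Ms4a1, Siglech, Flt3, S100a8 and Fcer1a. Limma called 1 gene of the 5 lists, the basophil protease gene Mcpt8, which was higher at 10.07 and 9.52 on the Hem1 KO arrays, against 5.89 and 5.22 on the WT arrays (4.24, SE 0.35, adjusted p = 8.4e-05). The summed B cell level was 11.10 and 9.94 (log2) on the Hem1 KO arrays, against 9.64 and 9.04 on the WT arrays. That of the basophil and mast cell list was 10.58 and 9.98 on the Hem1 KO arrays, against 8.92 and 8.32 on the WT arrays. Ebf1 and Mcpt8 were the brightest genes of these lists on the Hem1 KO arrays, and the lists did not rise as a whole. Of the B cell list 4 of 6 lay under 0, with a median of -0.19. Of the basophil and mast cell list 4 of 8 did, with a median of 0.01. Ebf1, a transcription factor gene, had the largest difference of the B cell list, at 10.93 and 9.64 on the Hem1 KO arrays, against 8.84 and 8.22 on the WT arrays (1.76, SE 0.42, limma adjusted p = 0.0586). The part of these cells in the receptor values was not tested.

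**Figure D1:**
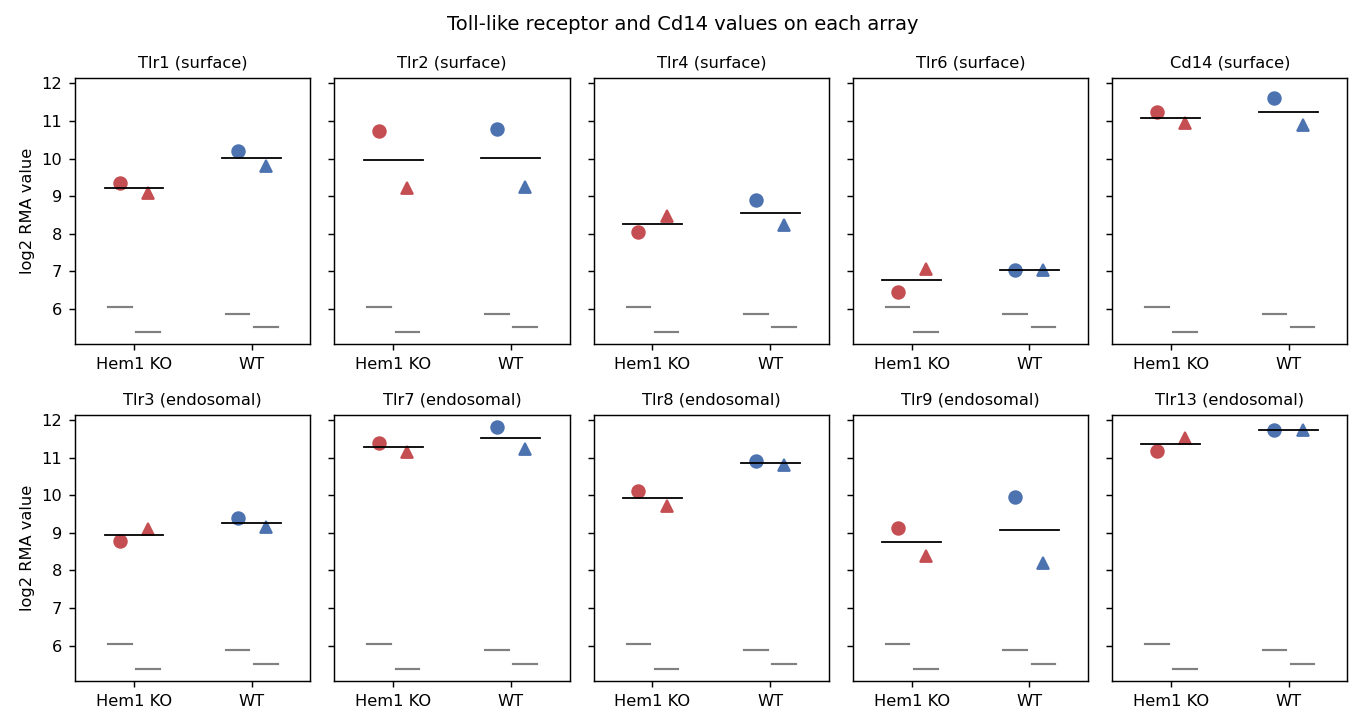
Log2 RMA value of each gene (vertical axis) on the 2 Hem1 KO arrays (red) and the 2 WT arrays (blue). Circles are replicate 1 and triangles replicate 2, black lines are group means, and short grey lines are the background of each array. All points lie above background, and the 2 groups are apart for Tlr1, Tlr3, Tlr8 and Tlr13.

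Of the surface receptors, Tlr1, which pairs with Tlr2 to bind triacylated lipopeptides, read 9.35 and 9.09 on the Hem1 KO arrays, against 10.21 and 9.79 on the WT arrays. Both Hem1 KO arrays lay below both WT arrays. The log2 difference was -0.78 (SE 0.32, 95% interval -1.48 to -0.08), a 1.72-fold lower level, with a limma adjusted p of 0.724. Tlr6, which pairs with Tlr2 for diacylated lipopeptides, read 6.45 and 7.07 on the Hem1 KO arrays, against 7.04 and 7.05 on the WT arrays. The groups overlapped, since only Hem1 KO replicate 1 was low, and the difference of -0.29 (SE 0.33) did not pass. Tlr6 was the member closest to background.

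Tlr2, the shared subunit of these lipopeptide receptors, read 10.74 and 9.21 on the Hem1 KO arrays, against 10.78 and 9.23 on the WT arrays. The genotypes had nearly the same pair of values, while the arrays within a genotype lay 1.53 (Hem1 KO) and 1.54 (WT) apart. Its difference of -0.03 (SE 0.52) had an interval of -1.16 to 1.10, which covers a 2-fold change in either direction.

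Tlr4, the receptor for lipopolysaccharide, read 8.04 and 8.46 on the Hem1 KO arrays, against 8.89 and 8.24 on the WT arrays. The groups overlapped and the difference was -0.31 (SE 0.34, 95% interval -1.05 to 0.43). Cd14, which hands lipopolysaccharide to the Tlr4 complex, read 11.23 and 10.96 on the Hem1 KO arrays, against 11.62 and 10.88 on the WT arrays. Only WT replicate 1 stood above the other arrays, and the difference was -0.16 (SE 0.34, 95% interval -0.90 to 0.58). Neither gene passed, with unadjusted limma p-values of 0.381 and 0.651.

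Of the endosomal receptors, Tlr8 read 10.11 and 9.72 on the Hem1 KO arrays, against 10.92 and 10.80 on the WT arrays. The groups lay clear of each other, and the gap between them was wider than the spread within either. The difference was -0.95 (SE 0.32, 95% interval -1.63 to -0.26), a 1.93-fold lower level and the smallest p of the 10 genes, with a limma adjusted p of 0.364 and rank 576 of the 19505 genes by p. Tlr8 passed by limma in 3 of 11 alternatives, among them with each array centred on its median (-1.05, adjusted p = 0.0423) and when the prior spread followed intensity (adjusted p = 0.000394). With that prior Tlr8 took its spread wholly from genes of like intensity (SE 0.21, against 0.32 in the main fit). Its own spread did not enter. Over all alternatives its adjusted p ran from 0.000394 to 0.999981.

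Tlr7, a sensor of single-stranded RNA, read 11.40 and 11.16 on the Hem1 KO arrays, against 11.81 and 11.23 on the WT arrays. The groups overlapped, with a difference of -0.24 (SE 0.33, 95% interval -0.96 to 0.47). Tlr9, the sensor of unmethylated CpG DNA, read 9.12 and 8.39 on the Hem1 KO arrays, against 9.96 and 8.20 on the WT arrays. The WT arrays lay 1.76 apart and enclosed both Hem1 KO values, and the difference was -0.33 (SE 0.48, 95% interval -1.37 to 0.71).

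Tlr3, the sensor of double-stranded RNA that signals through TRIF, read 8.79 and 9.10 on the Hem1 KO arrays, against 9.39 and 9.16 on the WT arrays. The groups did not overlap, but Hem1 KO replicate 2 and WT replicate 2 were only narrowly apart, and the difference was -0.33 (SE 0.32). Tlr13, which binds a conserved stretch of bacterial ribosomal RNA, read 11.18 and 11.53 on the Hem1 KO arrays, against 11.73 and 11.74 on the WT arrays. Both Hem1 KO values were lower than the tightly matched WT values, and the difference was -0.38 (SE 0.32, 95% interval -1.06 to 0.30). Neither passed, with unadjusted limma p-values of 0.315 and 0.252.

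**Figure D2:**
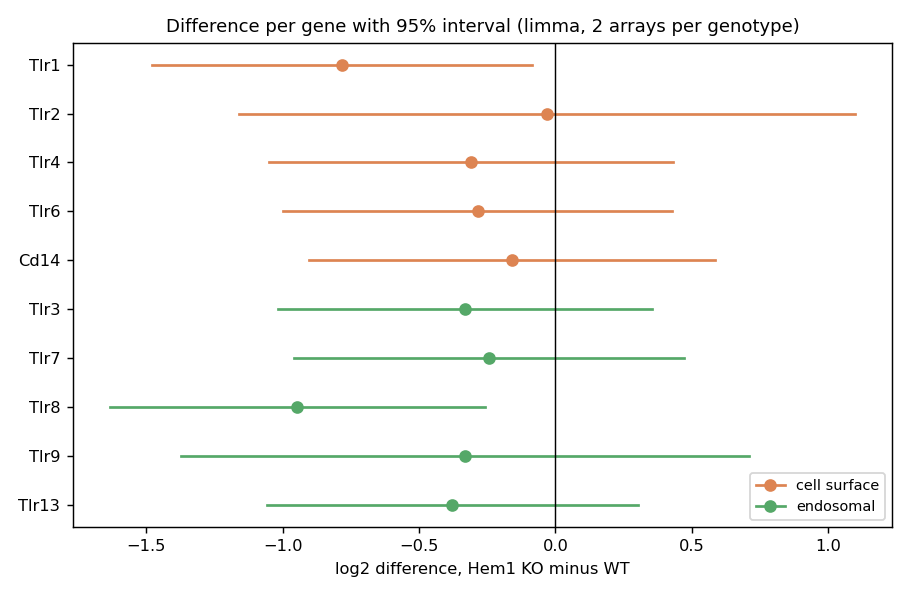
Log2 difference, Hem1 KO minus WT (horizontal axis), of each gene with its 95% interval from limma, for surface receptors (orange) and endosomal receptors (green). All 10 points lie under 0, and only the intervals of Tlr1 and Tlr8, before adjustment for the number of genes, leave out 0. Tlr2 lies above 0 after quantile normalization, and Tlr2, Tlr4, Tlr7, Tlr9 and Cd14 do without WT replicate 1. Tlr6 does without Hem1 KO replicate 1, and Tlr2 and Tlr9 do without Hem1 KO replicate 2.

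The neighbouring receptors of the set form 2 pairs of close relatives, Tlr1 with Tlr6 on chromosome 5 and Tlr8 with Tlr7 on the X chromosome, each pair adjacent among protein-coding genes in RefSeq. Tlr8 and Tlr1 had the larger differences of each pair, -0.95 beside -0.24 for Tlr7 and -0.78 beside -0.29 for Tlr6. Tlr8 minus Tlr7 was -1.29 and -1.44 on the Hem1 KO arrays, against -0.89 and -0.43 on the WT arrays, a difference of -0.70 in which the groups did not overlap (exact permutation test, two-sided p = 0.333, the smallest that 2 arrays against 2 can give). Tlr1 minus Tlr6 was 2.89 and 2.03 on the Hem1 KO arrays, against 3.17 and 2.75 on the WT arrays, a difference of -0.50 with overlapping groups (exact permutation test, two-sided p = 0.667). These 2 pairs were the only ones compared, and the adjusted p over them was 0.667 for each. Whether probes of one relative also bind the transcript of the other was not tested.

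Surface and endosomal receptors did not separate by more than a small amount. The mean difference was -0.31 over the 5 surface genes and -0.45 over the 5 endosomal genes, with medians of -0.29 and -0.33. Surface minus endosomal, after each gene was centred on its mean over the 4 arrays, was 0.10 and 0.04 on the Hem1 KO arrays, against 0.00 and -0.13 on the WT arrays. The resulting shift of 0.13 toward the surface genes compares with an SD between replicates of 0.04 in Hem1 KO and 0.10 in WT macrophages, and was 0.09 without Cd14. It is given as a description, without a test.

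Taken by direction, 10 of 10 members lay under 0, against 48.2% of all genes, and their median difference was -0.32, against 0.01 over all genes. Among genes above background on at least 2 arrays, as all members were, 55.6% lay under 0, with a median of -0.04. With each array centred on its median, 63.4% of all genes lay under 0, with a median of -0.09. Both Hem1 KO arrays lay below both WT arrays for 4 of 10 (Tlr1, Tlr3, Tlr8 and Tlr13), against 13.3% of all genes, and above them for 0, against 12.5%. The direction of 5 genes rested on WT replicate 1. Without that array 5 of 10 lay under 0, against 29% of all genes, whose median moved to 0.16. Tlr2, Tlr4, Tlr7, Tlr9 and Cd14 then read higher in Hem1 KO macrophages, by 0.01 to 0.74. Without Hem1 KO replicate 1 the count was 9, against 73% of all genes, with Tlr6 higher. Without Hem1 KO replicate 2 it was 8, against 30.3%, with Tlr2 and Tlr9 higher, and without WT replicate 2 it was 10, against 66.6%. Tlr1, Tlr3, Tlr8 and Tlr13 kept their direction after quantile normalization. The other alternatives could not change it. Centring lowered every difference, and the rest kept the difference or left out 1 array of groups that did not overlap.

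Markers of the cells and of interferon signalling are given beside the receptors. The 10 macrophage identity genes also all lay under 0, against 48.2% of all genes, with a median of -0.30, close to that of the members. Both Hem1 KO arrays lay below both WT arrays for 8 of these 10, against 13.3% of all genes, and above them for 0, against 12.5%. Limma called 0 of the 10, and 1 was lower at an unadjusted p under 0.05, against 1.57% of all genes. Their summed level was 14.95 and 14.86 (log2) on the Hem1 KO arrays, against 15.33 and 15.10 on the WT arrays. Of 9 measured stromal markers, 6 were called higher by limma, against 1.48% of all genes, and 0 lower, against 0.133%. Their median was 1.94, with a summed level of 13.41 and 13.02 on the Hem1 KO arrays, against 11.56 and 11.10 on the WT arrays. Without WT replicate 2, 3 of them were called. The 20 measured type I interferon response genes had a median of -0.72, with 19 under 0. Limma called 0 of them, and 5 were lower at an unadjusted p under 0.05, against the same 1.57%. For 6 of the 20 both Hem1 KO arrays lay below both WT arrays, against 13.3% of all genes, and for 0 above them, against 12.5%. The summed level of these 20 genes was 11.85 and 11.79 on the Hem1 KO arrays, against 13.33 and 11.78 on the WT arrays. In this sum WT replicate 1 alone stood high. Without it their median was 0.13, while that of the macrophage identity genes was -0.23, with 9 of 10 under 0, against 29% of all genes. The part of these 3 lists in the receptor values was not tested.

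**Figure D3:**
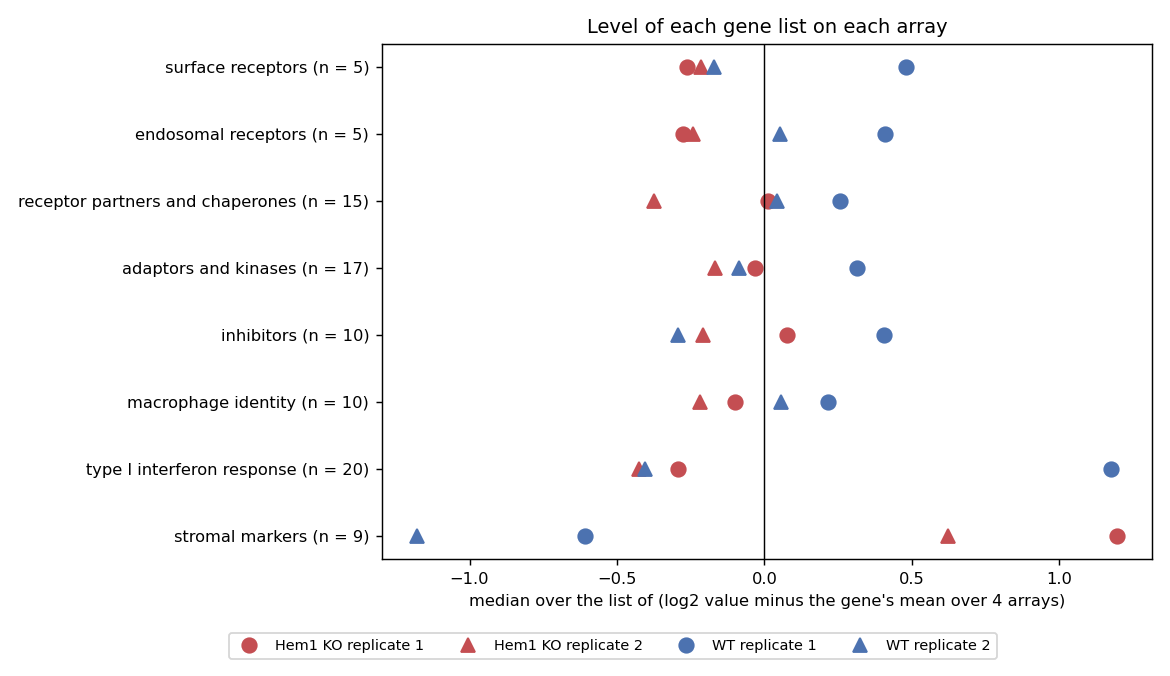
Median over each gene list of the log2 value minus the gene's own mean over the 4 arrays (horizontal axis), for each Hem1 KO array (red) and WT array (blue). WT replicate 1 is highest for the surface receptors (0.48), the endosomal receptors (0.41) and the interferon response genes (1.18), while the stromal markers are high on both Hem1 KO arrays.

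The receptors work with chaperones, co-receptors, adaptors and inhibitors. Of 50 listed genes of this kind, 45 had a probe set, and limma called 0 higher, against 1.48% of all genes, and 0 lower, against 0.133%. By unadjusted p under 0.05, 4 stood lower, against 1.57% of all genes, and 0 higher, against 3.63%. Of the 45, 37 lay under 0, against 48.2% of all genes, with a median of -0.21. When WT replicate 1 was left out 23 did so, against 29% of all genes, and 24 when Hem1 KO replicate 2 was, against 30.3%. The count was 44 without Hem1 KO replicate 1, against 73%, and 42 without WT replicate 2, against 66.6%. Both Hem1 KO arrays lay below both WT arrays for 17, against 13.3% of all genes, and above them for 1, against 12.5%, namely the kinase gene Map3k7.

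Among 15 co-receptors, chaperones and proteases, 12 lay under 0 with a median of -0.25. Cd180, a Toll-like receptor relative that dampens Tlr4 signalling in myeloid cells, read 8.88 and 9.63 on the Hem1 KO arrays, against 10.01 and 10.49 on the WT arrays (-0.99, SE 0.35, limma adjusted p = 0.457). Cd36, a scavenger receptor that assists Tlr2 and Tlr6, read 11.04 and 10.88 on the Hem1 KO arrays, against 11.83 and 11.86 on the WT arrays (-0.89, SE 0.31, limma adjusted p = 0.423). Both genes were clear of overlap. The protease gene Ctsl, whose product trims endosomal receptors, read 10.66 and 10.11 on the Hem1 KO arrays, against 11.16 and 10.97 on the WT arrays (-0.68, SE 0.33). Chosen after their values were seen, Ly96, the MD-2 subunit that binds lipopolysaccharide for Tlr4, read -0.63 (SE 0.35), Ly86, the partner of Cd180, -0.03 (SE 0.31), and Unc93b1, the chaperone that delivers nucleic acid receptors to endosomes, -0.34 (SE 0.33). None of these 3 passed. In 3 of 11 alternatives Cd180 was called lower, among them without Hem1 KO replicate 2 (-1.37) and with a prior that follows intensity (adjusted p = 0.0019). Cd36 was called in 2 and Ctsl in 1, with that prior in each case (adjusted p = 1.0e-05 and 0.0181). Neither the fit with that prior nor the fit without an array used the gene's own spread.

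Among 17 measured adaptors, kinases and transcription factors, 14 lay under 0 with a median of -0.29. Ticam2, the adaptor that links Tlr4 to TRIF, read 6.67 and 5.74 on the Hem1 KO arrays, against 7.27 and 6.98 on the WT arrays, and the groups did not overlap (-0.92, SE 0.36, limma adjusted p = 0.632). It was called lower in 2 of 11 alternatives, among them without Hem1 KO replicate 1 (-1.39), a fit in which its own spread did not enter. Myd88, the adaptor of all members here but Tlr3 and Cd14, read 8.58 and 8.88 on the Hem1 KO arrays, against 9.29 and 9.16 on the WT arrays (-0.50, SE 0.32). Ticam1, which encodes TRIF and was chosen after its value was seen, read -0.49 (SE 0.32). Irf7, an interferon-inducible factor downstream of Tlr7 and Tlr9, read 7.21 and 7.25 on the Hem1 KO arrays, against 10.62 and 7.18 on the WT arrays. Only WT replicate 1 was high, and the difference of -1.67 (SE 0.74) became 0.05 without that array, while Irf7 was called lower without any one of the other arrays (adjusted p at most 0.00406) and with the prior that follows intensity (adjusted p = 9.2e-05).

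Among 10 measured inhibitors, 9 lay under 0 with a median of -0.15, and 0 had an unadjusted p under 0.05 by limma. The 3 with the smallest p were Trafd1 (-0.38), Rnf216 (-0.23) and Tollip (-0.21). Of the 3 remaining Toll-like receptors, Tlr11 and Tlr12 were below background on all 4 arrays. Tlr5, the receptor for flagellin, read 8.21 and 7.03 on the Hem1 KO arrays, against 8.91 and 5.85 on the WT arrays, with the WT arrays enclosing both Hem1 KO values (0.24, SE 0.71). It was called higher without WT replicate 1 (1.77, adjusted p = 0.0247).

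For 5 of 10 members (Tlr2, Tlr4, Tlr7, Tlr9 and Cd14) the arrays within each genotype differed more than the genotypes did, against 52.9% of all genes, so the members were near the general rate. Replicate 1 exceeded replicate 2 by 0.73 (Hem1 KO) and 1.76 (WT) for Tlr9, whose genotype difference was -0.33. Tlr2 was 1 of 45 genes, 0.231% of all, with a gap over 1.5 in both genotypes, while the median gap over all genes was 0.38 (Hem1 KO) and 0.28 (WT). The NF-kB target genes Nfkbia and Tnfaip3, which encode inhibitors of that pathway and were chosen after their values were seen, had gaps of 0.99 and 2.15 in Hem1 KO and 1.68 and 1.39 in WT macrophages. Their genotype differences were -0.06 (SE 0.49) and -0.37 (SE 0.59). That of Tnfaip3 was -1.44 without Hem1 KO replicate 1 and 0.71 without Hem1 KO replicate 2. Tlr2 holds the NF-kB letters in the sequence printed above, and whether they bear on these values was not tested. Tlr6, Tlr4, Tlr13 and Tlr3 ran the other way in Hem1 KO macrophages, with gaps of -0.61, -0.42, -0.34 and -0.32.

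**Figure D4:**
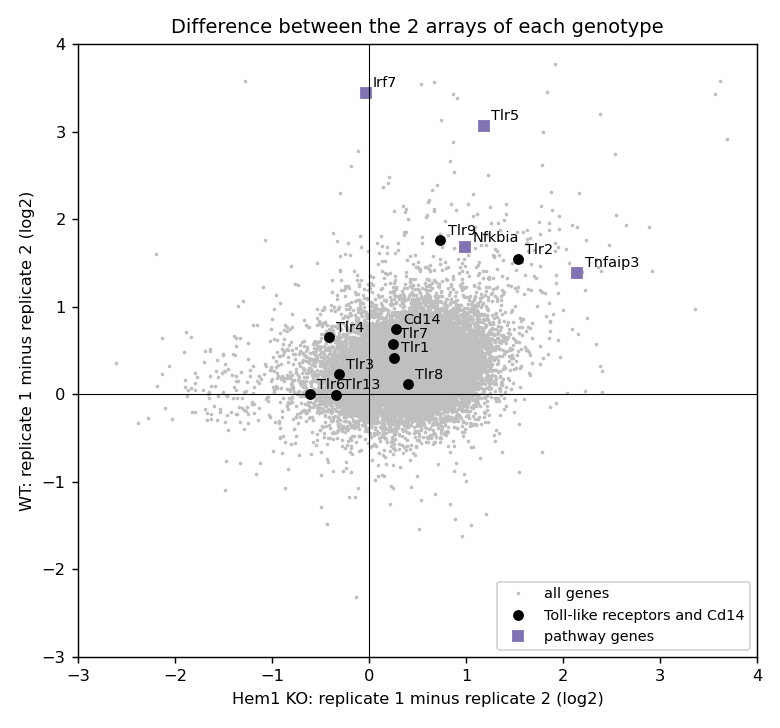
Log2 value on replicate 1 minus replicate 2, in Hem1 KO macrophages (horizontal axis) and in WT macrophages (vertical axis). Grey points are all genes (1 lies outside the axes), black points the 10 members and purple squares 4 pathway genes. Tlr2 lies at 1.53 and 1.54, far from the bulk of genes, and Irf7 is high on WT replicate 1 alone.

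The genes nearest to Tlr8 over the 4 arrays, by Euclidean distance of values centred on each gene's mean, were Pdxk (0.08), Gpr155 (0.09), Mamld1 (0.11), Pik3cb (0.12) and Slc18a1 (0.13). Their differences ran from -1.04 to -0.87. In all, 30 genes lay within 0.25 of Tlr8.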

How the data were processed

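The deposited log2 values of 4 arrays were used as they stand. The authors made them with RMA, per the submitters' processing notes, with no version or settings given in the sources used here, and the log2 scale was read from the values. Of 29129 probe sets, 19572 name 1 gene in the platform annotation, 0 several and 9557 none. The brightest probe set by mean was kept for each of 19505 genes. A linear model per gene (limma 3.58.1 under R 4.3.3, lmFit then eBayes, 11.2 prior degrees of freedom) had genotype as the only term, Hem1 KO minus WT, two-sided, with Benjamini-Hochberg adjustment over all genes. Each test rests on 2 mice per genotype, and the number of arrays limits the precision. No scan dates or batches are given in the labels. Members and lists were chosen with earlier results of these data known. Named are all members, Nckap1l, in each pathway list the called genes or else the 3 with the smallest p, and the 5 genes nearest to the member with the smallest p. Others were chosen after their values were seen. Upstream sequences are RefSeq's. The fit was tested on simulated data. Alternatives left out each array, added the replicate number as a block, changed the normalization, the filter on dim genes, the prior, the probe sets and the threshold.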

Additional observations from a re-analysis of the deposited data

How the results depend on the processing

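Of the 10 receptor genes, 0 were called higher in any alternative, and Tlr8 was the only one called lower: 1 member with the replicate block (-0.95, adjusted p = 0.0185 by limma), with arrays centred on their median, and with a prior that follows intensity. Centring lowered every difference by 0.10, and the median of all genes moved to -0.09 from 0.01. Leaving out 1 array at a time gave 5 to 10 members under 0, called 0 of them, and gave 185 to 545 of all genes higher and 26 to 101 lower, with 0 to 1 pathway genes higher and 0 to 3 lower. The share of all genes under 0 ran from 29% to 73% when 1 array was left out. With all arrays, 288 genes were called higher and 26 lower. The replicate block gave 620 higher, 199 lower and 3 pathway genes lower (Cd180, Cd36 and Ticam2, with adjusted p of 0.0127, 0.0276 and 0.0321), centring 70 lower, quantile normalization 16 lower, the filter on dim genes 174 higher and 8 lower, and the prior that follows intensity 205 lower and 5 pathway genes lower (Cd180, Cd36, Ctsl, Ctss and Irf7). The labels do not say whether same-numbered arrays share a batch, so the numbers were not taken as pairs. The gaps between replicates correlated at 0.241 between genotypes across genes, which are not independent. Quantile normalization turned Tlr2 to 0.072, Ly86 to 0.12 and Nfkbia to 0.043. Fits without 1 array took Tlr2 from -0.80 to 0.74, Tlr9 from -1.21 to 0.55, Tlr4 from -0.64 to 0.014, Tlr6 from -0.59 to 0.021, Tlr7 from -0.53 to 0.045, Cd14 from -0.53 to 0.21, Tlr5 from -1.29 to 1.77, Tlr11 from -0.43 to 0.42, Tlr12 from -0.39 to 0.38, Irf7 from -3.39 to 0.053, Trafd1 from -0.77 to 0.017, Ly86 from -0.13 to 0.071, Tnfaip3 from -1.44 to 0.71 and Nfkbia from -0.90 to 0.78. The surface minus endosomal shift ran from 0.06 to 0.20. The causes were not tested. A fit with 1 array in an arm takes its spread from the other genotype. In these fits limma gave all genes 1 common spread (SE 0.50 without a WT array, 0.40 without a Hem1 KO array). With the prior that follows intensity, the spread came wholly from genes of like intensity. In neither case did a gene's own spread enter the call.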
